A study of Mus musculus with 203 samples.

Results

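Among the 24029 genes counted in single neurons of the mouse nucleus ambiguus, 32 marker genes of glia and blood vessels are described here: 10 of astrocytes, 10 of the oligodendrocyte lineage, 9 of microglia and 3 of endothelium. They were listed by name as markers of these cells, and all 32 were found among the counted genes. The question was how much RNA of each kind the aspirated neurons held, and which kinds were held by the same neurons.

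The neurons came from wild-type C57BL/6 mice (C57BL/6NCrl in the methods) in which fluorescent cholera toxin B, a tracer that travels from nerve endings back to the cell body, was injected at postnatal day 1 into either the pericardial space or the cricothyroid muscle of the larynx. Labelled cell bodies were drawn into glass pipettes from slices of the medulla at postnatal days 2 to 4, and each cell became 1 Smart-seq2 library, a method that reads whole transcripts without molecular identifiers or strand. The deposited annotation assigned 151 neurons labelled from the heart (Amb cardiac neurons) to the ACP type (53) or the ACV type (98), and 52 neurons labelled from the larynx to the Larynx type (Amb laryngeal neurons). All 203 shared strain, tracer, age range and method, and differed in injection site and assigned type. No label ties a neuron to a mouse, slice or plate, so each type stood as 1 sample, no test was made between types, and every interval or SD below covers counting or the spread among neurons, not among animals.

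Astrocytes take up glutamate and buffer water and ions around synapses, and in the newborn brainstem they are still multiplying. Cells of the oligodendrocyte lineage begin as dividing precursors and mature into the cells that wrap axons in myelin, while microglia are the resident macrophages, which clear debris and mark synapses with complement. A motor neuron's cell body lies among the processes of all of these cells and beside capillaries, whose endothelial cells are joined by tight junctions.

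A library held between 542162 and 3292763 counts, with a median of 1746613. The ribosomal RNA gene Rn45s took a median of 34.3% of the counts in ACP neurons, 35.8% in ACV neurons and 58.6% in Larynx neurons, so levels are given as CPM, here counts per 1000000 counts outside Rn45s. Those remaining totals ran from 118492 to 2396541, and their median was 560892 in Larynx neurons against 1115375 in ACP neurons and 1120512 in ACV neurons. The neurons were neurons by their own genes: the acetylcholine transporter Slc18a3 and the neuronal genes Nefl, Tubb3 and Snap25 had a read in 203 of 203, and the acetylcholine-synthesizing enzyme Chat in 197. No pair of neurons had identical counts.

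Astrocyte members were read in the most neurons and endothelial members in the fewest. Of the 32 members, 2 had a read in over 90% of the 203 neurons (Apoe in 199 and Aldoc in 202), 9 in 50 to 90%, and 21 in under 50%, of which 3 were under 10%. The median share of neurons with a read was 62.3% over the 10 astrocyte members, 22.7% over the 10 members of the oligodendrocyte lineage, 29.6% over the 9 microglia members and 2.96% over the 3 endothelial members. Per kilobase of exon, on which genes of different length can be compared, the mean level over all neurons was highest for Apoe (788 CPM per kb) and Aldoc (346), followed by C1qb (72.2), Cnp (62.3), Olig1 (43.0), C1qa (42.7) and Mbp (39.5). As a background, 14 genes of tissues that no brain slice holds (liver, lung, heart, eye, pancreas, testis, kidney) had a summed median of 4.97 CPM. Of these, Apoa2, a liver gene, reached 10 CPM in 33 neurons, and each of the others in at most 11.

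**Figure D1:**
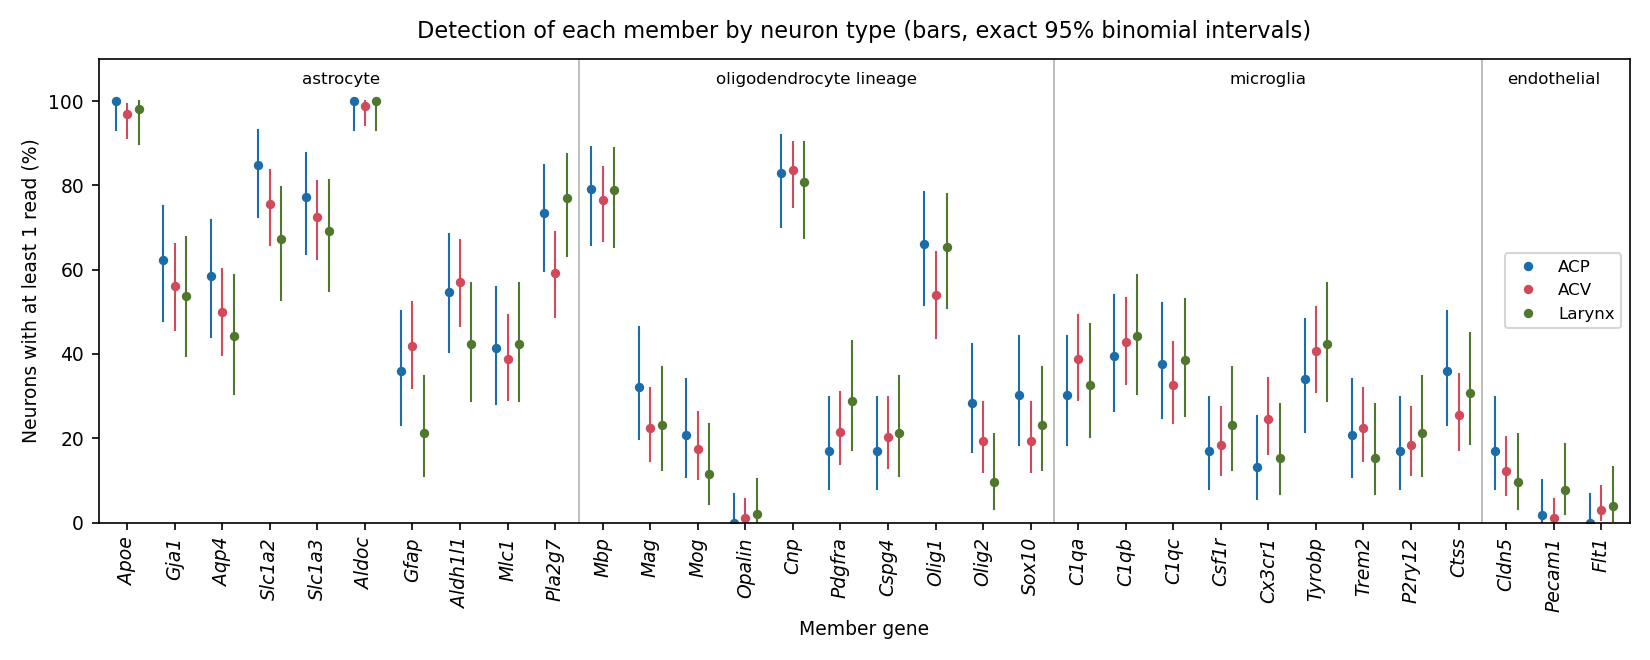
Share of neurons with at least 1 read of each of the 32 members (percent), by neuron type (ACP, n = 53; ACV, n = 98; Larynx, n = 52), with exact 95% binomial intervals as bars. Apoe and Aldoc lie near 100% in all 3 types, the microglia members between 13.2% and 44.2%, and Pecam1 and Flt1 under 10%.

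Apoe encodes the lipid carrier that astrocytes and, to a lesser degree, microglia secrete, and lies at chr7:19696109-19699188 on the minus strand of GRCm38 (mm10). Its level ran from 2.87 to 7966 CPM in ACP neurons (median 892), from 0 to 30238 in ACV neurons (median 855) and from 0 to 13925 in Larynx neurons (median 977). The 3 medians were close together while the upper ends were far apart, and the mean was 1243 ± 1391 (SD, n = 53) in ACP, 2085 ± 3835 (SD, n = 98) in ACV and 1384 ± 1975 (SD, n = 52) in Larynx neurons. Apoe also has a place in the study's methods, where neurons with more than 1800 counts of it were to be removed. In the deposited counts, 39 of the 203 neurons stood above that limit, 11 ACP and 28 ACV neurons, with up to 45046 counts, and the highest Larynx neuron had 1784 counts. Per 1000000 of all counts, Rn45s included, 18 neurons stood above 1800, and whether the limit was meant for raw or scaled counts is not given in the sources used here.

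Aldoc, the glycolytic enzyme aldolase C, behaved otherwise than Apoe, with little spread and its highest levels in laryngeal neurons. Its level ran from 14.5 to 2915 CPM in ACP neurons (median 734), from 0 to 2507 in ACV neurons (median 919) and from 152 to 3296 in Larynx neurons (median 1646). Across the 203 neurons its highest rank correlation (Spearman's rho) with another member was 0.20, with Mlc1. Its rho was 0.43 with Nefl, the neurofilament light chain of the neurons themselves, 0.19 with Slc18a3 and Snap25 and 0.058 with Tubb3. With the summed astrocyte members other than Apoe, Slc1a2 and Aldoc it was 0.13. By type this was 0.33 in ACP, 0.21 in ACV and -0.11 in Larynx neurons. Together Apoe and Aldoc made up 51.2% and 34.3% of the astrocyte list's mean reads.

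The other 8 astrocyte members were present in fewer neurons and at lower levels. The glutamate transporters Slc1a3 and Slc1a2 had a read in 148 and 154 neurons, with means of 119 ± 215 and 47.6 ± 66.0 CPM (SD, n = 203). Pla2g7, a lipase of astrocytes, was read in 137 neurons, the gap junction protein Gja1 in 116, the folate enzyme Aldh1l1 in 107, the water channel Aqp4 in 103, the membrane protein Mlc1 in 82 and the intermediate filament Gfap in 71. A few neurons carried much of the total: for Gfap, 1 ACV neuron with 3614 CPM held 26.6% of the level summed over all 203 neurons, and the next highest neuron had 1224. Aldh1l1, Slc1a2 and Pla2g7 overlap exons of genes on the opposite strand, whose reads cannot be told apart from theirs.

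In the oligodendrocyte lineage, reads centred on Cnp, Mbp and Olig1, and the other 7 members were each missing from most neurons. Cnp, an enzyme of non-compact myelin, had a read in 168 neurons and Mbp, the myelin basic protein, in 158, and they made up 31.3% and 46.2% of the list's mean reads. Mbp ran from 0 to 4756 CPM in ACP neurons (median 89.1), from 0 to 6377 in ACV neurons (median 65.8) and from 0 to 3574 in Larynx neurons (median 66.2), so that its medians lay close while each type had single neurons far above them. The myelin genes that appear later were scarce: the myelin-associated glycoprotein Mag was read in 51 neurons, Mog, a protein of the outer myelin surface, in 34, and Opalin in 2, with 0 of 53 ACP neurons, which allows a share of up to 5.66% (3 in 53; exact 95% upper bound 6.72%). Cnp shares 154 exon bases with Dnajc7 on the opposite strand, and Pdgfra and Olig1 overlap other genes there too.

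The precursor genes Pdgfra, the receptor for platelet-derived growth factor, and Cspg4, the NG2 proteoglycan, had a read in 45 and 40 neurons. Among the lineage's transcription factors, Olig1 was read in 122 neurons, Sox10 in 47 and Olig2 in 39. Olig1 and Olig2 lie next to each other on chromosome 16 (chr16:91269772-91271933 and chr16:91225457-91228677, both on the plus strand). Per kilobase, Olig1 had a mean of 43.0 CPM and Olig2 of 4.59. The 3 groups of the lineage were joined only loosely: the summed level of the 5 myelin genes had a rho of 0.11 with that of Pdgfra and Cspg4 and of 0.30 with that of the 3 transcription factors, which in turn had a rho of 0.32 with the precursor genes.

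The 9 microglia members were each missing from most neurons. The complement genes C1qb, C1qc and C1qa, whose products form the recognition molecule that starts the classical complement pathway, had a read in 86, 72 and 71 neurons, and Tyrobp, the signalling adaptor of myeloid receptors, in 80. The lysosomal protease Ctss was read in 60 neurons, the lipid receptor Trem2 in 41, Csf1r, the receptor on which microglia depend for survival, in 39, the fractalkine receptor Cx3cr1 in 39 and the nucleotide receptor P2ry12 in 38. Csf1r shares 873 exon bases with Hmgxb3 on the opposite strand, so reads in the shared bases cannot be told apart, and Cx3cr1 and P2ry12 share 78 and 9 bases with other genes. C1qa, C1qc and C1qb form a cluster within 18675 bases of chromosome 4, all on the minus strand (chr4:136895917-136898803, chr4:136889804-136893065 and chr4:136880129-136886187). The bases before the start sites of C1qb and C1qc are shown because these neighbouring genes varied together over the neurons (rho 0.60). The value was not particular to neighbours: Tyrobp, on chromosome 7, also had a rho of 0.60 with C1qb. Printed 5′ to 3′ on the genes' strand from RefSeq (GRCm38.p6), the 250 bases before each RefSeq start cover chr4:136886201-136886450 and chr4:136892915-136893164. The C1qc gene printed above, from GENCODE, begins farther upstream, so 151 of these C1qc bases lie inside it. Capitals mark GAGGAA on either strand (TTCCTC), the core letters that factors of the PU.1 kind, known in macrophages, bind.
C1qb: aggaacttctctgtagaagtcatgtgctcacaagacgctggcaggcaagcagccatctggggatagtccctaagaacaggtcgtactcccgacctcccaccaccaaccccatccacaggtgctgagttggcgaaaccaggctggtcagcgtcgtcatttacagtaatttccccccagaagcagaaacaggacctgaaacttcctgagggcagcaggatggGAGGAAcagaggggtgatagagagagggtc
C1qc: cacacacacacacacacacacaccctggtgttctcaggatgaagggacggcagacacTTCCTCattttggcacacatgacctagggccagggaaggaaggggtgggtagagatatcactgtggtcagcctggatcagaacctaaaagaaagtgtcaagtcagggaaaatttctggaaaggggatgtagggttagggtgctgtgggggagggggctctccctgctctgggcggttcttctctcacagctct
Each window held 1 match, beginning at position -30 for C1qb and -193 for C1qc counted from the RefSeq start. These letters are common: 23.3% of 32851 windows of 250 bases in the RefSeq set held them, and so did those of 4 of the 6 microglia members with a window there. So did 4 of 12 windows of astrocyte members, 2 of 9 of the oligodendrocyte lineage and 1 of 2 of endothelium. A match is a description of the letters and says nothing of binding.

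C1qb reached 161 CPM at most in ACP neurons, 2448 in ACV neurons and 592 in Larynx neurons, from 0 upward and with a median of 0 in each type. The mean was 20.4 ± 37.8 (SD, n = 53), 125 ± 381 (SD, n = 98) and 50.7 ± 116 (SD, n = 52). The share of neurons with a C1qb read was nonetheless similar, 39.6% (exact 95% interval 26.5 to 54.0) in ACP, 42.9% (32.9 to 53.3) in ACV and 44.2% (30.5 to 58.7) in Larynx neurons. With every neuron thinned to the smallest total of 118492 counts, the shares were 32.1%, 37.8% and 36.5%. Summed over the 9 microglia members, 65 neurons were at 0 and 13 were over 1000 CPM, 9 ACV and 4 Larynx neurons. The top 10% of neurons held 79.9% of the summed microglia level, against 51.8% for the oligodendrocyte lineage and 33.9% for astrocytes. With Apoe, Slc1a2, Aldoc, Mbp, Cnp and Ctss left out, these shares were 79.8%, 60.6% and 47.4%.

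The 3 endothelial members were close to absent. A further 12 endothelial markers, listed by name, summed to a median of 59.8 CPM, with 31 of 203 neurons at 0. Single markers of those 12 were read in 1.48% to 59.1% of neurons. Cldn5, the claudin of endothelial tight junctions, had a read in 26 neurons and never exceeded 94.0 CPM, Pecam1, an adhesion molecule of vessel walls, was read in 6 neurons, and Flt1, a receptor for vascular endothelial growth factor, in 5. In 167 of the 203 neurons all 3 were at 0. Flt1 was read in 0 of 53 ACP neurons, which allows a share of up to 5.66% (3 in 53; exact 95% upper bound 6.72%) by counting error.

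**Figure D2:**
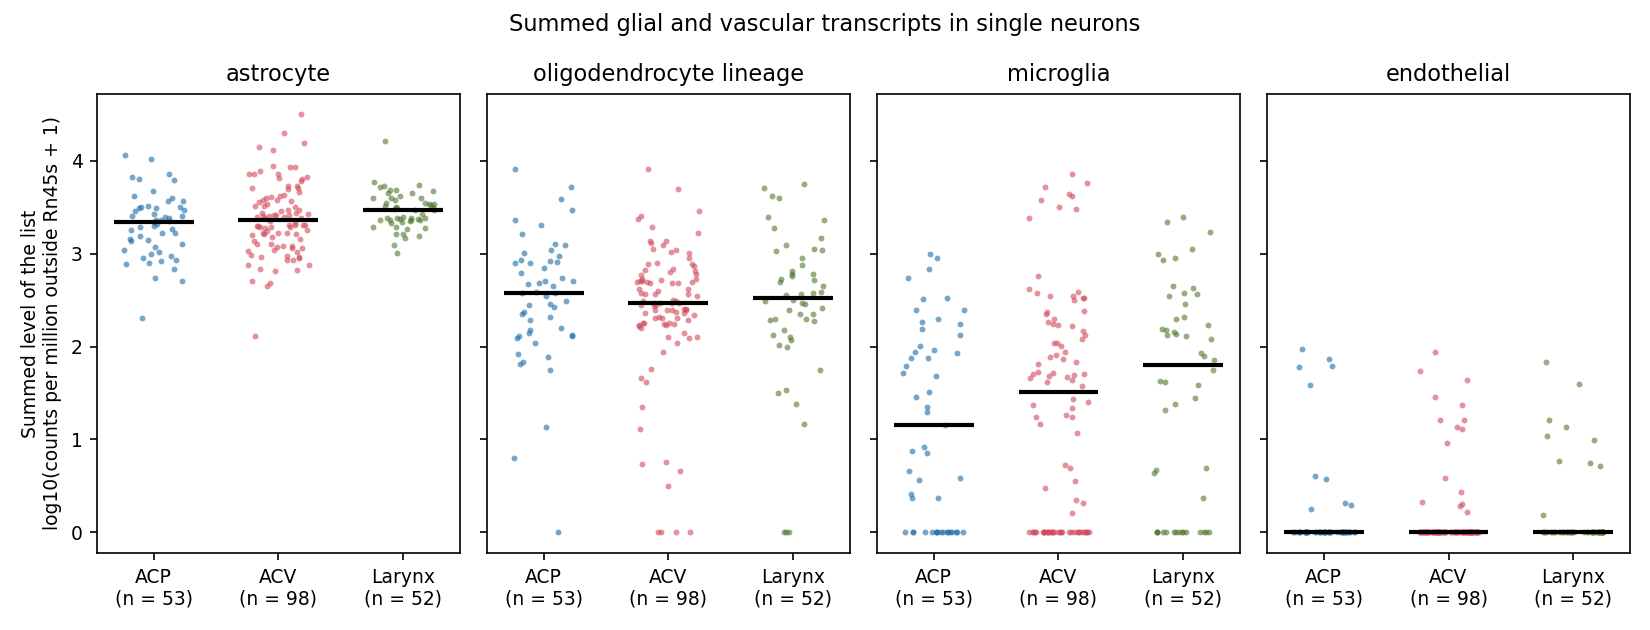
Summed level of each member list in every neuron, as log10(CPM + 1), 1 point a neuron, by type, with the median as a line. Astrocyte sums begin at 129 CPM, and the microglia sums over 1000 belong to 9 ACV and 4 Larynx neurons.

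Between the neuron types, most members differed less than 2-fold in mean level. A 2-fold ratio was looked for in genes that at least 10% of neurons on either side had a read of, which 29 of the 32 members met. Between Amb cardiac and Amb laryngeal neurons, 4 members were at least 2-fold higher in cardiac neurons, beside 9.45% of all 13202 genes, and 3 in laryngeal neurons, beside 10.9%. With 13.8% and 10.3% of the members tested, both shares lay near those of all genes. The members that were higher in cardiac neurons were Olig2 (log2 ratio 2.68), Pdgfra (1.87), Gfap (1.44) and Aqp4 (1.11). Those higher in laryngeal neurons were Mag (-2.85), Sox10 (-1.58) and P2ry12 (-1.11).

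These ratios rested on few neurons and went different ways within 1 lineage. Olig2 had a read in 15 ACP, 19 ACV and 5 Larynx neurons, and its mean was 14.8 CPM in cardiac and 2.32 in laryngeal neurons. Mag was read in 17 ACP, 22 ACV and 12 Larynx neurons, and 1 Larynx neuron with 1216 CPM held 45.2% of its laryngeal sum. Without the highest neuron on each side, the log2 ratio was -2.30 for Mag and 3.20 for Olig2, while Sox10, at -0.94, was no longer past 2-fold. The scaling mattered for this comparison: with Rn45s kept in the totals, the median of all genes moved to 0.56. In that setting 14 members were at least 2-fold higher in cardiac neurons, beside 24.3% of all genes, and 1 in laryngeal neurons, beside 4.61%.

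Between ACP and ACV neurons the microglia members stood apart. Of the 9, 8 had a mean at least 2-fold higher in ACV neurons, and the ninth, Tyrobp, had 29.6 against 15.6 CPM. The median log2 ratio of ACP over ACV was -2.01 for the microglia members, beside 0.003 over all genes tested, and 9 of the 29 members tested (31.0%) were higher in ACV neurons, beside 8.63% of 13356 genes. Cx3cr1 was 8.45-fold higher (43.2 against 5.12 CPM), C1qb 6.13-fold (125 against 20.4) and Csf1r 5.85-fold. The remaining member higher in ACV neurons was Gfap (100.5 against 41.8 CPM), which without the highest neuron on each side had a log2 ratio of -0.84. Higher in ACP neurons were Sox10 (15.4 against 5.59) and Cldn5 (6.24 against 2.38), 2 of 29 (6.90%), beside 9.87% of all genes.

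The higher microglia means of ACV neurons came with the neurons above 1800 Apoe counts. All 9 ACV neurons with a summed microglia level over 1000 CPM were among the 28 above that limit. Among the 42 ACP and 70 ACV neurons at or below it, an alternative chosen after the data were seen, 0 of the 29 members were 2-fold higher in ACV neurons and 11 were higher in ACP neurons, beside 8.18% and 13.0% of all genes, and the microglia median became 0.81. C1qb then had means of 14.2 CPM in ACP and 19.9 in ACV neurons, and Csf1r of 9.74 and 1.94. All 52 Larynx neurons were below the limit and kept a C1qb mean of 50.7. Then 13 of the 29 members tested, all 9 of microglia among them, were at least 2-fold higher in laryngeal than in cardiac neurons. Among all 13147 genes the share was 12.8%. Apoe is itself a member and had a rho of 0.51 with the microglia members other than Ctss. The limit took out cardiac neurons only, so the counts of members at this limit were in part fixed beforehand. The limit is in counts, and the lower totals of Larynx neurons move with it: their highest Apoe level, 13925 CPM, came from the neuron with the smallest total and 1650 counts of Apoe. Whether type, Apoe limit or depth accounts for these differences cannot be told apart here.

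Which kinds of glial RNA were held by the same neurons was read first from the summed levels. Over 203 neurons, Spearman's rho was 0.49 between astrocyte and microglia sums, 0.38 between astrocyte and oligodendrocyte sums and 0.28 between oligodendrocyte and microglia sums. With endothelial sums it was 0.08 for astrocytes, -0.03 for the oligodendrocyte lineage and 0.17 for microglia. A rho under 0.3 in counts this sparse is not counted as a relation. Within types, astrocyte and microglia sums had a rho of 0.44 in ACP, 0.52 in ACV and 0.44 in Larynx neurons, and astrocyte and oligodendrocyte sums of 0.39, 0.42 and 0.36. Of the 3 glial pairs, oligodendrocyte and microglia sums varied most between types, at 0.43, 0.17 and 0.32. Microglia with endothelial sums had 0.35 in ACP, 0.14 in ACV and 0.028 in Larynx neurons, and astrocyte with endothelial sums 0.23 in ACP neurons. The points share depth, the scaling total, mice and plates. With counts outside Rn45s and the number of genes read held fixed by partial ranks, the 3 glial values were 0.36 for astrocytes with the oligodendrocyte lineage, 0.43 for astrocytes with microglia and 0.23 for the oligodendrocyte lineage with microglia.

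Some members are also transcribed outside the cell type they mark, so Apoe, Slc1a2, Aldoc, Mbp, Cnp and Ctss were next left out. With the endothelial members, the narrower lists had a rho of 0.18 for astrocytes, 0.09 for the oligodendrocyte lineage and 0.16 for microglia, and in ACP neurons of 0.36, 0.21 and 0.35. The 7 astrocyte members left had a rho of 0.41 with the 8 left in the oligodendrocyte lineage and of 0.43 with the 8 of microglia, and oligodendrocyte with microglia sums had 0.35. Among these narrower lists all 3 glial pairs were thus past 0.3, as they also were within each type apart from astrocytes with the oligodendrocyte lineage in ACP neurons (0.25).

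**Figure D3:**
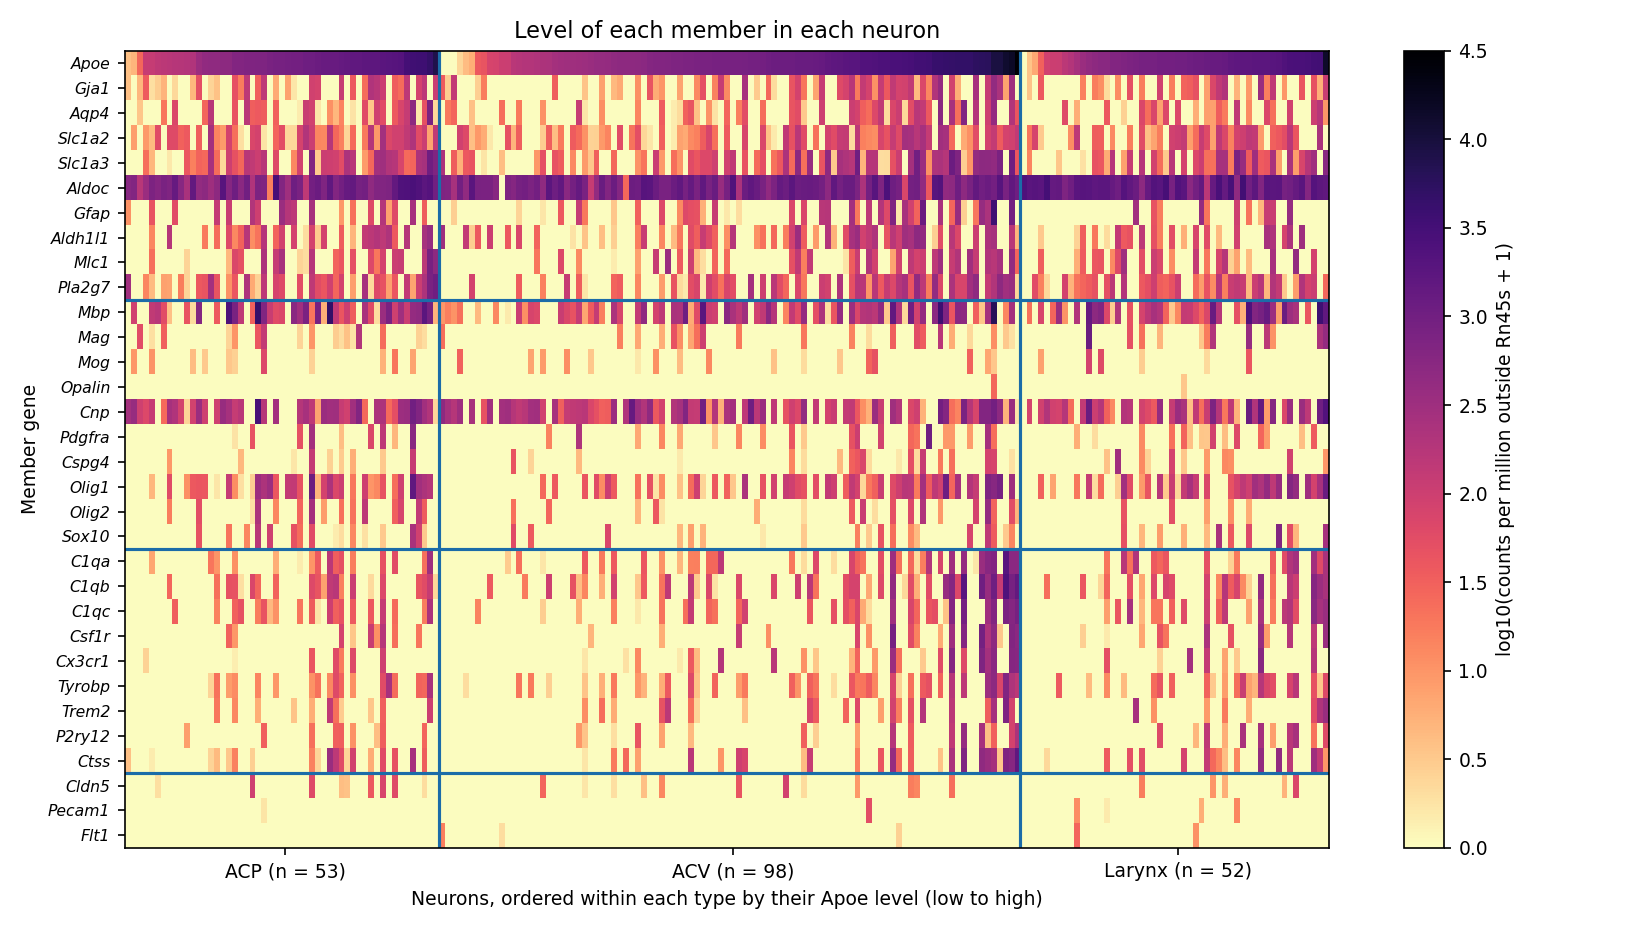
Level of the members in each of the 203 neurons (columns, grouped by type) as log10(CPM + 1), with members in rows by list and neurons of a type ordered from low to high Apoe. Neurons with many microglia members are scattered through all 3 types, and most of them also show astrocyte members.

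By members of the full lists, nearly every neuron carried the astrocyte list, most the oligodendrocyte list and a minority the microglia list. A neuron was taken to carry a list where at least 2 of its members reached 10 CPM, a cut on a continuous range and no cell type. By this measure 201 of 203 neurons carried the astrocyte list, 155 (76.4%, exact 95% interval 69.9 to 82.0) the oligodendrocyte list, 79 (38.9%, 32.2 to 46.0) the microglia list and 1 (0.493%) the endothelial list. Many neurons lay near the cut: for microglia, 37 had 1 member at that level and 18 had exactly 2, while 34 had 5 or more and 6 had all 9. All 3 glial lists were carried by 69 neurons, and astrocyte and oligodendrocyte lists alone by 84. Astrocyte and microglia lists alone were carried by 10, and the astrocyte list alone by 37. Apoe reached 10 CPM in 192 neurons and Aldoc in 202, so joint counts with the full astrocyte list were nearly fixed beforehand. Cnp and Mbp reached 10 CPM in 156 and 137 neurons. The types were close: the microglia list was carried by 32.1% (19.9 to 46.3) of ACP, 40.8% (31.0 to 51.2) of ACV and 42.3% (28.7 to 56.8) of Larynx neurons.

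With the narrower lists, 142 neurons carried astrocyte, 66 oligodendrocyte and 78 microglia members. The oligodendrocyte list was then carried by fewer neurons than the microglia list. Of the 78 with microglia, 68 (87.2%) also carried the astrocyte list, against 59.2% of those without. Of the 66 with the oligodendrocyte list, 57 (86.4%) carried the astrocyte list, against 62.0% of those without. The oligodendrocyte and microglia lists met in 38 neurons, 57.6% of the first and 48.7% of the second, and 36 of these 38 carried the astrocyte list too. Microglia members were carried with neither of the others in 8 neurons and oligodendrocyte members in 7, whereas astrocyte members were carried alone in 53, and 43 neurons carried none of the 4 lists.

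Single neurons at the upper end held microglia and oligodendrocyte members apart or together. The ACV neuron with the most Apoe (30238 CPM) held 5788 CPM of microglia members, 8 of the 9 at 10 CPM or more, with C1qb at 1402, Ctss at 1565 and Csf1r at 520. The same neuron had 4.70 CPM of oligodendrocyte members, and its astrocyte members besides Apoe, Slc1a2 and Aldoc summed to 113. The ACV neuron with the highest microglia sum, 7214 CPM, likewise had 21.1 of oligodendrocyte members, beside 12817 of Apoe and 296 of the astrocyte members besides Apoe, Slc1a2 and Aldoc. Another ACV neuron held all 3 kinds at once, with 15668 of astrocyte members (Gfap at 3614), 8118 of oligodendrocyte members (Mbp at 6377) and 4369 of microglia members (C1qb at 1038). In an ACP neuron the oligodendrocyte sum was nearly as high, 8094, and the microglia sum was 61.1. All of these neurons kept Slc18a3, between 48.6 and 396 CPM, under the median of 837 over all neurons.

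Members of 1 list varied together most closely in microglia. Among the 22 members with a read in at least 20% of neurons, the 15 pairs of microglia members had a median rho of 0.52 and all 15 were at least 0.3. The 45 astrocyte pairs had a median of 0.33, with 27 at least 0.3, and the 15 pairs of the oligodendrocyte lineage of 0.24, with 4. Between lists the medians were 0.26 for astrocyte with microglia members, 0.22 for oligodendrocyte with microglia members and 0.21 for astrocyte with oligodendrocyte members. Within the oligodendrocyte lineage the pairs were thus hardly closer than pairs across lists.

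For 19 of the 22 members the closest partner lay in their own list. The 22 were 10 astrocyte, 6 oligodendrocyte and 6 microglia members. For Aldoc (0.20 with Mlc1) and Cnp (0.27 with Mag) that rho was under 0.3. C1qa and Tyrobp were each other's closest (rho 0.60), as were Apoe and Slc1a3 (0.56), and Sox10 was closest to Olig1 (0.42). The exceptions were Olig1, closest to Apoe (0.53), Aqp4, closest to C1qa (0.43), and Pdgfra, closest to Gfap (0.33). Cnp had a median rho of 0.07 with members of other lists, and its highest was 0.27 with Mag.

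**Figure D4:**
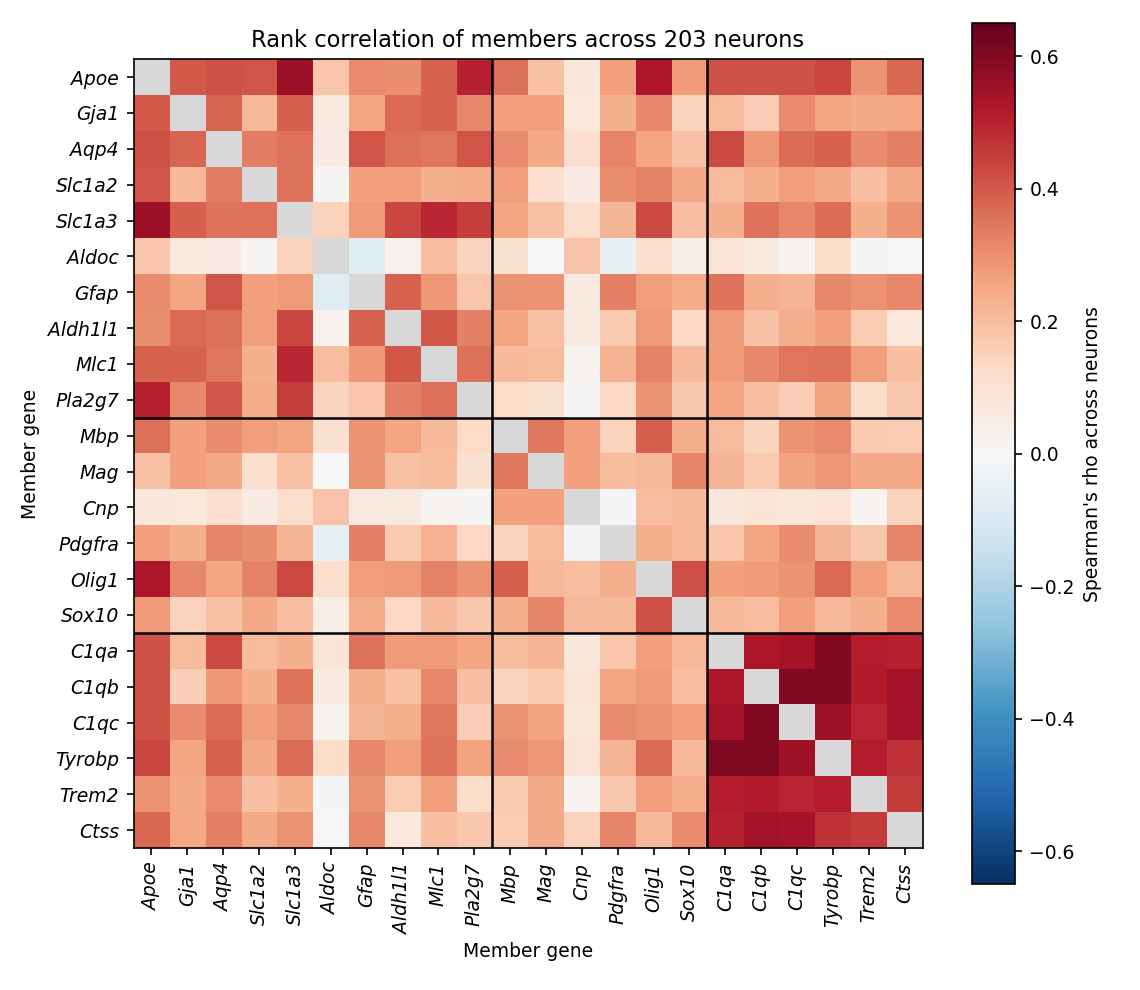
Spearman's rho between members with a read in at least 20% of the neurons, over 203 neurons, ordered by list (colour scale from blue, negative, to red, positive). The microglia block holds the closest pairs, from 0.46 to 0.60, and Aldoc and Cnp are pale across their rows.

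Apoe moved with all 3 kinds of glia. Its rho was 0.70 with the 7 narrower astrocyte members, 0.54 with the 8 of the oligodendrocyte lineage, 0.51 with the 8 microglia members and 0.11 with the endothelial members. Within types, Apoe and microglia members had a rho of 0.37 in ACP, 0.56 in ACV and 0.52 in Larynx neurons. With the astrocyte members held fixed by partial ranks, Apoe and microglia kept a rho of 0.33, and with microglia held fixed, Apoe and astrocyte members had 0.62. Microglia RNA was also found at low Apoe counts: of the 164 neurons at or below 1800 counts, 31.7% carried the microglia list, and of the 108 at or below 900 counts, 25%.

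**Figure D5:**
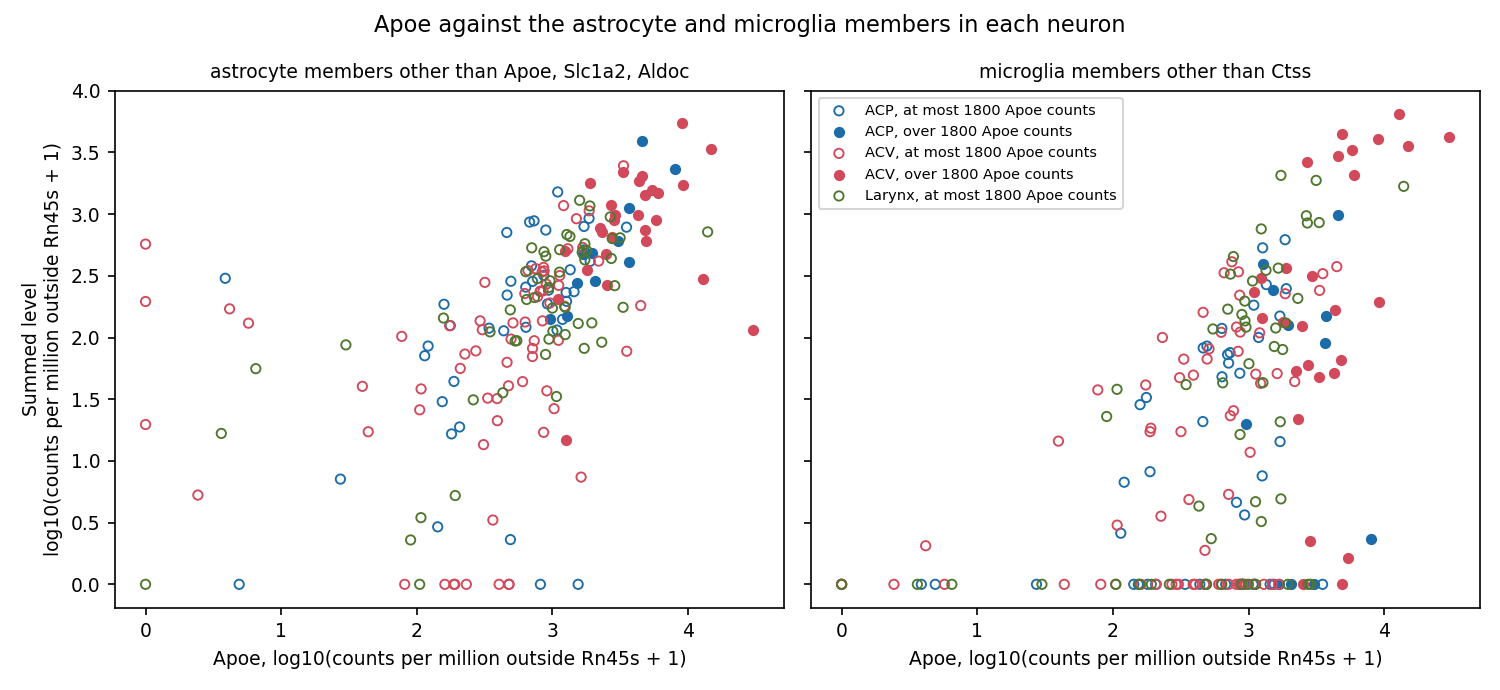
Level of Apoe in each neuron against the summed level of the 7 astrocyte members other than Apoe, Slc1a2 and Aldoc (left) and of the 8 microglia members other than Ctss (right), as log10(CPM + 1), coloured by type, with filled points for neurons above 1800 Apoe counts and open points for the others. Apoe rises with both sums (rho 0.70 and 0.51), and the ACV neuron with the most Apoe has a microglia sum of 4222 beside an astrocyte sum of 113.

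Genes outside the members were ranked by their rho with each sum. Among 11173 other genes with a read in at least 20% of neurons, those closest to the astrocyte sum were Sparcl1 (rho 0.65), Dbi (0.64), Fabp7 (0.64), Sparc (0.62) and Igfbp2 (0.56). Fabp7 is the fatty acid binding protein of radial glia and young astrocytes, and Sparcl1 encodes a matrix protein that astrocytes secrete. Among those closest to the oligodendrocyte sum were the myelin gene Mobp (0.41), S100a16 (0.40), Bcas1 (0.38) and Dbi (0.38), the last of which was also close to the astrocyte sum. With the narrower oligodendrocyte list, the closest was the astrocyte marker Fabp7 (0.56), and Dbi (0.49) and Sparcl1 (0.47) were among the 5 closest. The microglia sum was followed by Fcer1g (0.61), the common chain of Fc receptors, Cyba (0.53), a subunit of the phagocyte oxidase, Ly86 (0.52), Laptm5 (0.51) and Crybb1 (0.50). The number of genes with a rho of at least 0.3 was 127 for astrocytes, 112 for microglia, 82 for endothelium and 27 for the oligodendrocyte lineage.

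Further markers of each cell type, listed by name, were counted against the narrower member lists. Of 14 other microglia markers, 13 had their highest rho with the microglia list and 11 were at least 0.3 with it, among them Aif1 (0.47), Fcrls (0.45) and Spi1 (0.39), which encodes PU.1. Of 16 other astrocyte markers, 12 were highest with the astrocyte list and 9 were at least 0.3, from Fabp7 (0.66) down to Ntsr2 (0.040). Of 13 other markers of the oligodendrocyte lineage, 10 were highest with their own list and 4 were at least 0.3. Of 12 other endothelial markers, 5 were highest with the endothelial list and 0 were at least 0.3.

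The neurons' own genes and the library measures were set beside glial RNA. Apoe had a rho of -0.34 with the tubulin gene Tubb3, -0.30 with Nefl, -0.30 with Snap25 and -0.24 with Slc18a3. The narrower astrocyte list had a rho of -0.32 with Nefl and -0.26 with Slc18a3, and the narrower microglia list of -0.18 with each of them. The full astrocyte sum had a rho of -0.36 with the counts outside Rn45s and of 0.40 with the percent on Rn45s. By type, that with the percent on Rn45s was 0.33 in ACP, 0.42 in ACV and 0.21 in Larynx neurons. For the narrower astrocyte list, rho over all neurons was -0.21 with the counts outside Rn45s and 0.25 with the percent on Rn45s. Levels are counts divided by the counts outside Rn45s, so a rho with that total or with the Rn45s share is in part built in. The part of depth and of the Rn45s share in the astrocyte levels was not tested. The endothelial sum had a rho of 0.29 with the number of genes read.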

How the data were processed

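Per the labels and the methods, reads of 203 single neurons were trimmed with Skewer, aligned to mm10 with STAR 2.6.1d and counted per gene. The gene annotation used for counting is not given in the sources used here. The authors deposited raw counts per gene and neuron, without normalization, and these counts were the only values used. A deposited table named CPM was not used. Of 24029 genes, 4493 had no read.

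Counts were divided by each neuron's total without Rn45s and multiplied by 1000000, the CPM of the text. Neuron types came from the deposited annotation. Exon lengths were unions of exons in GENCODE vM21 (GRCm38). Lists were compared by Spearman's rho of summed levels, by members at 10 CPM or more, and types by 2-fold ratios of mean levels. With 1 sample per type no test was made, and intervals are exact (Clopper-Pearson) at 95%, for counting error only. Where 0 neurons had a read, the limit given is 3 counts of the number of neurons. The members and lists were chosen with earlier results of these data known. Genes named outside the members were the 5 with the highest rho per list among genes read in at least 20% of neurons, and the leading genes of the further lists. Results for some of these genes are not reported here. Thinning drew counts without replacement to the smallest total, 118492. Doublets were not called, since each cell was picked by hand. Alternatives included totals with Rn45s, edgeR 4.0.16 TMM and DESeq2 1.42.0 size factors (R 4.3.3), thinning, other limits and filters, and neurons at or below 900 or 1800 Apoe counts. Python 3.11.15, numpy 2.4.6, pandas 2.3.3, scipy 1.17.1 and matplotlib 3.10.9 were used, and the steps were first tested on simulated data.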

Additional observations from a re-analysis of the deposited data

How the results depend on the processing

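The counts are of single libraries, so depth limits the low genes: 1 read is worth 8.44 CPM in the shallowest neuron. Correlations were called stable within the Fisher interval of the value over 203 neurons, shares within their exact interval and counts of members within 1.5 times. Of the 78 alternative correlations of list sums, 73 stayed within it. The others were astrocyte with oligodendrocyte sums at 900 Apoe counts or fewer (0.26), astrocyte with endothelial (0.23), oligodendrocyte with microglia (0.43) and microglia with endothelial sums (0.35) within ACP neurons, and the last within Larynx neurons (0.028). All 9 alternatives of the correlations within lists stayed close.

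The share of neurons carrying a list moved with its definition in 18 of 36 cases. At 50 CPM it was 94.6% for astrocytes, 56.2% for the oligodendrocyte lineage, 21.2% for microglia and 0% for endothelium, with at least 1 member 100%, 93.6%, 57.1% and 8.87%, and with at least 3 members 90.6%, 47.8%, 30.0% and 0%. The narrower lists gave 70.0% for astrocytes and 32.5% for the oligodendrocyte lineage. At 900 Apoe counts or fewer it was 69.4% for the oligodendrocyte lineage and 25% for microglia, at 1800 or fewer 31.7% for microglia, and with Rn45s in the totals 0% for endothelium.

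Members 2-fold higher in cardiac neurons numbered 14 with Rn45s in the totals, beside 24.3% of all genes. At 900 Apoe counts or fewer they numbered 0, beside 11.7%. Those higher in laryngeal neurons numbered 1 with Rn45s in the totals, beside 4.61%. With a read required in 25% of neurons they numbered 1, beside 8.62%. At 900 and 1800 Apoe counts or fewer they numbered 19 and 13, beside 14.8% and 12.8%. Those higher in ACP numbered 1 with the 25% filter, 11 at 900 and 11 at 1800, beside 7.15%, 15.0% and 13.0%. Those higher in ACV numbered 5, 3 and 0, beside 4.87%, 12.4% and 8.18%. The smaller numbers with the 25% filter come with fewer members tested, and for the others the cause was not tested. Apoe is itself a member, so the counts at the Apoe limits were in part fixed beforehand. At 900 Apoe counts or fewer, log2 ratios turned for cardiac over laryngeal neurons in Aqp4 (-0.89), Gfap (-0.46) and Pdgfra (-0.84), and for ACP over ACV in Gfap (2.89), C1qa (0.15), C1qb (0.21), C1qc (1.16), Trem2 (0.19), Ctss (1.60) and Cldn5 (-0.10). At 1800 or fewer they turned for ACP over ACV in Gfap (0.46), C1qc (0.83), Csf1r (2.32), P2ry12 (1.15) and Ctss (1.74). Of all 180 alternative log2 ratios, 151 kept their direction and their side of 2-fold, 14 kept direction only and 15 turned. At 1800 or fewer, the astrocyte sum's rho was -0.035 with Slc18a3 and -0.48 with counts outside Rn45s, the total that levels are divided by. The alternatives at 1800 Apoe counts, without the highest neuron and with partial ranks were chosen after the data were seen. No paired analysis was possible because the labels give no number shared between groups.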

Other observations

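Genes of cells around vessels other than endothelium were read in some neurons. Genes of pericytes and smooth muscle summed to a median of 2.18 CPM, with 84 of 203 neurons at 0, beside 4.97 CPM for genes of tissues absent from the slice, and their sum had a rho of 0.34 with the endothelial members and 0.34 with the narrower microglia list. Vtn, a pericyte gene, was read in 60 neurons and Rgs5 in 43. Fibroblast genes such as Col1a2, read in 96 neurons, and Col1a1, in 74, had sums with a rho of 0.36 with the endothelial, 0.32 with the narrower microglia and 0.31 with the narrower astrocyte members. In 1 Larynx neuron the fibroblast sum was 13375 CPM, and the mean of Larynx neurons was 455 with it and 202 without it. The genes closest to the endothelial sum were H19 (0.43), Gjc1 (0.43), Mef2c (0.42), Arap2 (0.41) and Vtn (0.40).

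Markers of other neuron kinds that lie nearby summed to a median of 55.8 CPM in ACP, 47.7 in ACV and 241 in Larynx neurons. Their sum had a rho of 0.29 with the narrower astrocyte list. Whether the labelled neurons transcribe any of these genes themselves was not tested. The heme enzyme Alas2 of red blood cells was read in 57 neurons. Summed with the globin genes, its level was at 0 in 146 of 203 neurons, so no neuron without Alas2 had a globin read. The sum reached 95.8 CPM at most.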
